A study of Danio rerio with 23 samples.

Results

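The genes described here are the hepatocyte transcription factors around hnf4a, measured in zebrafish liver after irradiation. They were taken by gene symbol from a list of 9 factors, namely hnf4a, hnf1ba, cebpa, cebpb, foxa2, foxa3, prox1a, nr5a2 and nr1i2. A probe set is a group of array probes read as 1 value. Every probe set annotated to hnf4a was used (3), and the brightest one for each other gene, which gave 10 of the 75212 probe sets and 8 of the 21125 genes that carry a symbol of their own. The symbol hnf1ba was not in the probe annotation used here, so that this gene is not described. The gene cebpa had 3 probe sets, of which 2 held identical values on all 23 arrays.

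Liver RNA was read on 23 arrays in 8 groups of fish aged 6 months. In the first batch the groups were diet-induced obese (DIO) HBx,src fish given Oligo-Fucoidan (OF, a seaweed polysaccharide, 300 mg/kg by oral gavage for a month before irradiation and, per the protocol, again after it) and 40 Gy (4 arrays), HBx,src DIO fish with 40 Gy and mock treatment (3), WT fish with OF and 40 Gy (2) and WT fish with 40 Gy and mock treatment (2). In the second batch they were HBx,src,p53- DIO fish with OF and 10 Gy (5), HBx,src,p53- DIO fish with 10 Gy and mock treatment (3), WT fish with OF and 10 Gy (2) and WT fish with 10 Gy and mock treatment (2). All 8 groups were irradiated, and non-irradiated fish are not part of these arrays. Both transgenes, HBx (a hepatitis B virus protein) and src, are driven by the liver promoter of fabp10a, so that the model acts in hepatocytes, and the HBx,src,p53- fish are also heterozygous for a p53 mutation. Per the protocol the transgenic fish were female and overfed, while the WT fish ate a normal diet and their sex was not stated, so that genotype, diet and possibly sex cannot be told apart. Dose and batch likewise go together. Groups with OF are written OF + R and the same fish with radiation alone R.

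The factors bind promoters and enhancers of liver genes and each other's, and in mammals they form a network that keeps hepatocytes differentiated. HNF4A is a nuclear receptor that drives genes of lipid transport, clotting, bile acid and amino acid metabolism. FOXA proteins open chromatin early in liver development, C/EBP proteins act in metabolism and the acute phase, NR5A2 drives and PROX1 can repress genes of bile acid synthesis, and NR1I2 (PXR) senses foreign chemicals.

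All 10 probe sets lay above the median of every array. The mean log2 signal over the 23 arrays was 8.60, 7.14 and 4.56 for the 3 hnf4a probe sets, and 6.90 for cebpa, 7.67 for foxa2, 7.82 for nr5a2, 7.91 for nr1i2, 8.05 for prox1a, 8.24 for foxa3 and 8.42 for cebpb. Array medians lay between 2.02 and 2.21 with 40 Gy and between 2.46 and 2.58 with 10 Gy, and levels were compared only within a batch. Hepatocyte markers were bright on every array, with a mean log2 signal over 19 genes of 10.66 to 11.71 and 1 of the 19 below the array median, and fabp10a read 11.85 to 13.33. Markers of other tissues and oestrogen-responsive genes differed between arrays. In WT fish with 10 Gy, 20 ovary and oocyte markers averaged 5.96 to 6.16, against 1.79 to 3.25 on the other 21 arrays, and dazl, a germ cell marker, read 7.71 and 8.26, against at most 3.12 elsewhere. The egg yolk gene vtg2 read 13.54 to 13.93 in all HBx,src and in WT 10 Gy arrays and in 6 of the 8 HBx,src,p53- arrays, but 3.69 and 6.51 in replicates 1 and 4 of the HBx,src,p53- OF + R group and 2.42 to 6.36 in the other 6 WT arrays. In those replicates 1 and 4, vtg7 read 6.60 and 7.23, against 13.46 to 13.53 in the rest of their group. There esr1 read 5.63 and 4.89, against 9.85 to 10.44. The protocol names these fish as female, and the sex of the fish behind each array was not tested. Exocrine pancreas markers averaged 3.40 to 8.09 over the 23 arrays.

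OF with irradiation was first compared with radiation alone for hnf4a, which was higher with OF in every pair of groups. The 3 probe sets, which are of 1 gene and thus not independent, gave 12 such comparisons. In all of them the lowest OF + R array lay above the highest R array. Such a separation was common among bright genes, here the 2259 genes at least as bright as the dimmest of the 8 factors. Every array with OF stood above every array without in 26.8% of them in HBx,src DIO fish, 43.2% in WT fish with 40 Gy, 28.5% in HBx,src,p53- DIO fish and 58.4% in WT fish with 10 Gy, and in all 4 comparisons at once in 2.7% (61 genes, hnf4a among them). The brightest hnf4a probe set (13279312) read, in HBx,src DIO fish with 40 Gy, 9.17, 8.54, 8.75 and 8.78 in OF + R livers, against 7.91, 7.10 and 7.69 in R livers. With 40 Gy, WT fish had 8.13 and 8.29 in OF + R livers, against 6.44 and 7.21 in R livers. In these WT fish the gap was wider against R replicate 1, the lowest array of the first batch for this probe set. HBx,src,p53- DIO fish with 10 Gy had signals of 9.99, 9.45, 9.52, 9.95 and 9.32 in OF + R livers, against 8.10, 8.51 and 8.73 in R livers. Signals in WT fish with 10 Gy were 9.45 and 9.71 in OF + R livers, against 8.86 and 8.22 in R livers.

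**Figure D1:**
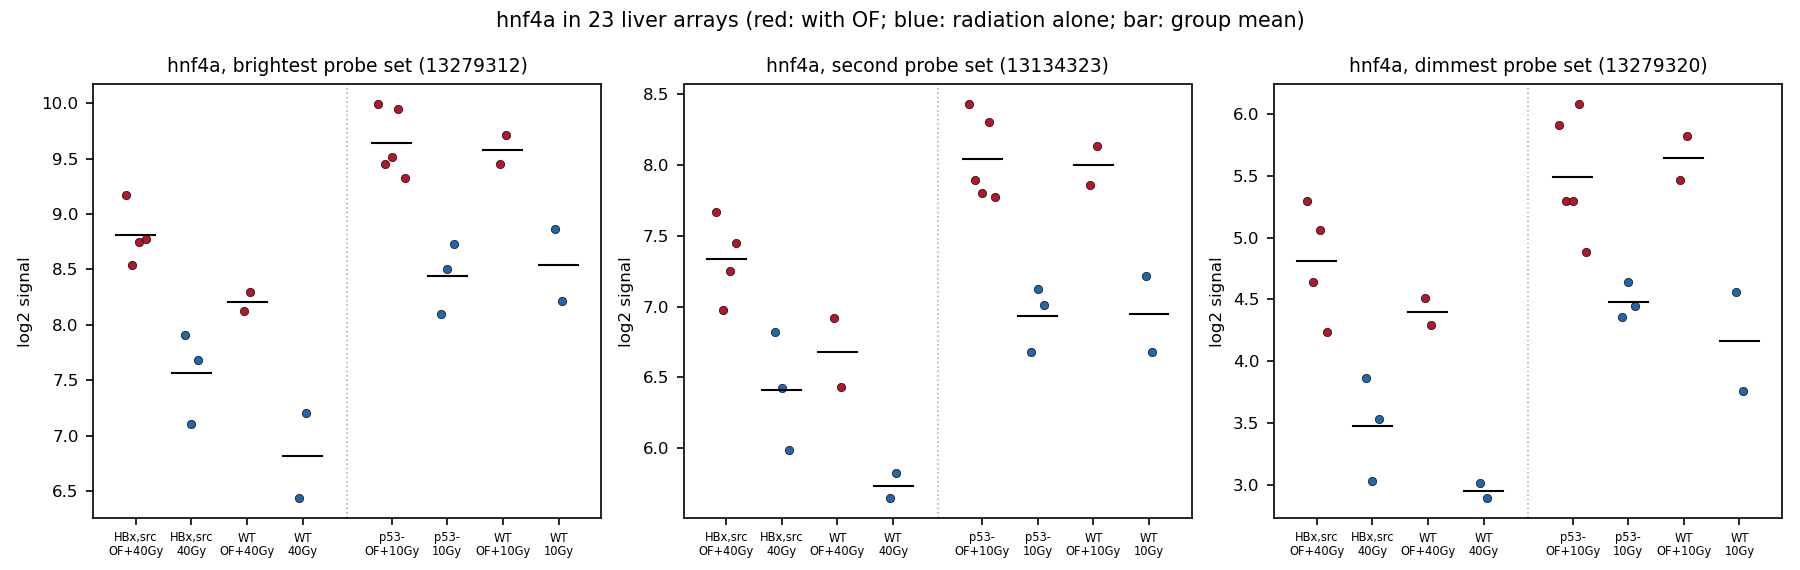
Log2 signal (y axis) of the 3 hnf4a probe sets on each of 23 arrays, by group (x axis), with the first batch left of the dotted line and the second right of it. Red points are arrays with OF, blue points arrays with radiation alone, black bars group means, and p53- stands for HBx,src,p53- DIO fish and HBx,src for HBx,src DIO fish. In every panel each red group lies above its blue neighbour without overlap.

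The log2 difference of this probe set, OF + R minus R, was 1.24 ± 0.25 (SE) in HBx,src DIO fish (adjusted p = 0.0184, limma), 1.39 ± 0.33 in WT fish with 40 Gy (adjusted p = 0.0297), 1.2 ± 0.24 in HBx,src,p53- DIO fish (adjusted p = 0.00987) and 1.04 ± 0.33 in WT fish with 10 Gy (adjusted p = 0.0846). These are rises of 2.37, 2.62 and 2.30 times in the comparisons that passed the threshold of 0.05. WT fish with 10 Gy did not pass it. In the same order, 1.37%, 2.95%, 3.29% and 5.1% of all 75212 probe sets were called in either direction, and 8.99%, 8.63%, 18.1% and 7.61% of the bright genes. Bright genes as a class were also higher with OF, with a median log2 difference of 0.41, 0.48, 0.22 and 0.44, while the median over all probe sets was -0.03, -0.08, -0.02 and 0.02. The hnf4a difference was larger than that of 91.3%, 90.3%, 89.2% and 83.7% of these bright genes.

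The other 2 hnf4a probe sets differed in the same direction. The second (13134323) read 7.66, 6.98, 7.25 and 7.45 in HBx,src DIO OF + R livers, against 6.82, 6.42 and 5.99 in R livers (log2 difference 0.92 ± 0.23, adjusted p = 0.0559). It read 6.92 and 6.43 in WT OF + R livers, against 5.65 and 5.82 in R livers with 40 Gy (0.94 ± 0.30, adjusted p = 0.103). Only in HBx,src,p53- DIO fish did it pass the threshold, with 8.43, 7.89, 7.80, 8.30 and 7.77 in OF + R livers, against 6.68, 7.12 and 7.01 in R livers (1.1 ± 0.22, adjusted p = 0.0101), and whether that difference exceeded the others was not tested. WT fish with 10 Gy had 7.86 and 8.13 in OF + R livers, against 7.21 and 6.68 in R livers (1.05 ± 0.30, adjusted p = 0.0532). The dimmest (13279320) passed the threshold in HBx,src DIO fish, with 5.29, 4.64, 5.06 and 4.24 in OF + R livers, against 3.87, 3.03 and 3.54 in R livers (1.33 ± 0.30, adjusted p = 0.0333). It also passed in WT fish with 10 Gy, with 5.47 and 5.83 in OF + R livers, against 4.56 and 3.76 in R livers (1.49 ± 0.39, adjusted p = 0.0308). Each of the 4 comparisons had at least 1 of the 3 probe sets past the threshold in this fit, though not the same one, but none was called outside HBx,src,p53- DIO fish with only the compared groups fitted or with quantile normalization. In WT fish with 40 Gy the dimmest gave 1.45 ± 0.39 (adjusted p = 0.0518) and in HBx,src,p53- DIO fish 1.01 ± 0.28 (adjusted p = 0.0592). Its WT R signals with 40 Gy, 3.01 and 2.89, lay only 0.80 and 0.70 above the array medians, so that the size there is uncertain. This probe set is also dimmer than the bright genes, whose shares do not cover it. The study drew attention to hnf4a from these same arrays, so its direction here is not independent evidence. The study also reported qPCR of further fish, in which hnf4a rose significantly in irradiated WT fish given OF. It described similar qPCR results in HBx,src,p53- DIO fish. That qPCR is not part of these arrays.

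Several hnf4a calls rested on few arrays. The call of the brightest probe set in WT fish with 40 Gy was lost without R replicate 1 (log2 difference 1.00, adjusted p = 0.194), OF + R replicate 1 (adjusted p = 0.0646) or OF + R replicate 2 (adjusted p = 0.222), and in HBx,src DIO fish without R replicate 2 (adjusted p = 0.0929) or OF + R replicate 1 (adjusted p = 0.0544). HBx,src,p53- DIO fish lost it without R replicate 1 (adjusted p = 0.0691) and without both arrays of low vtg2 (0.99, adjusted p = 0.0737). Those 2 arrays had the highest hnf4a signals of the group (9.99 and 9.95, against 9.32 to 9.52 in the other 3), and all 5 lay above the R arrays. The second probe set lost its call there without R replicate 1 (adjusted p = 0.0662) or both low vtg2 arrays (0.88, adjusted p = 0.0737). The dimmest lost its call in HBx,src DIO fish without R replicate 2 or 3 or OF + R replicate 1, 2 or 3 (adjusted p = 0.062 to 0.142), and in WT fish with 10 Gy without R replicate 2 or either OF + R array (adjusted p = 0.0774 to 0.289). Hepatocyte markers were also brighter with OF in HBx,src,p53- DIO fish, with a mean of 11.17 to 11.60 in OF + R livers and 10.66 to 10.91 in R livers and 7 of 19 markers called higher. Their mean was likewise higher without overlap in WT fish with 10 Gy (11.66 to 11.71, against 11.12 to 11.30, 0 called). The same held in HBx,src DIO fish (10.93 to 11.06, against 10.71 to 10.84, 1 called higher). In WT fish with 40 Gy the marker means overlapped (11.14 to 11.28, against 10.76 to 11.24, 0 called). There R replicate 1 had the lower marker mean of the R arrays. It was also the lower R array for the brightest and second hnf4a probe sets, nr5a2, prox1a, nr1i2 and foxa3. For the dimmest hnf4a probe set, cebpa, cebpb and foxa2 it was the higher one. Among WT fish with 10 Gy, 17 of 20 ovary and oocyte markers were called lower in OF + R livers (mean 2.02 to 2.05, against 5.96 to 6.16 in R livers). In the same comparison 6 of 10 oestrogen-responsive genes were called lower (median -7.41), 8 of 9 erythrocyte markers higher (mean 5.40 to 5.69 in OF + R livers, against 3.44 to 3.84 in R livers), and 21 exocrine pancreas markers had a median of -2.0 (1 called lower, 12 at an unadjusted p under 0.05). In WT fish with 40 Gy, 13 neutrophil and macrophage markers averaged 4.21 and 4.82 in OF + R livers, against 3.32 and 3.11 in R livers, with 1 called higher, and 21 exocrine pancreas markers 3.40 and 3.86, against 4.30 and 5.34, with 0 called by limma and 6 at an unadjusted p under 0.05. The part of these shifts in the hnf4a differences was not tested, and in bulk RNA fewer cells of a type and less RNA per cell cannot be told apart.

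Among the other nuclear receptors, nr5a2 (LRH-1, a regulator of bile acid and cholesterol genes) was higher with OF in WT fish and near its R level in the obese transgenic fish. Its signals in WT fish with 40 Gy were 8.20 and 8.29 in OF + R livers, against 6.03 and 7.31 in R livers. Those in WT fish with 10 Gy were 8.03 and 8.34 in OF + R livers, against 7.05 and 7.18 in R livers. Neither pair of groups overlapped, and 43.2% (40 Gy) and 58.4% (10 Gy) of the bright genes were separated in this way. The log2 difference of nr5a2 was 1.58 ± 0.28 with 40 Gy (adjusted p = 0.0061) and 1.07 ± 0.28 with 10 Gy (adjusted p = 0.0289). The HBx,src DIO fish had nr5a2 signals of 7.87, 7.75, 7.84 and 7.69 in OF + R livers, against 7.58, 7.66 and 7.51 in R livers, which did not overlap but differed by 0.20 ± 0.21 (adjusted p = 0.825). In these fish 26.8% of the bright genes were separated with OF above. The HBx,src,p53- DIO fish had nr5a2 signals of 8.46, 8.04, 8.24, 8.10 and 7.98 in OF + R livers, against 8.08, 8.20 and 8.44 in R livers, a difference of -0.08 ± 0.20 (adjusted p = 0.914) with overlapping arrays. The difference between the OF effects, transgenic minus WT, was -1.37 ± 0.35 in the 40 Gy batch (unadjusted p = 0.000981, adjusted p = 0.151) and -1.15 ± 0.34 in the 10 Gy batch (unadjusted p = 0.00366, adjusted p = 0.0838), so neither passed after adjustment. The 40 Gy call was lost without OF + R replicate 2 (adjusted p = 0.0664), and the 10 Gy call without any one of its 4 arrays (adjusted p = 0.0632 to 0.212). The 10 Gy call and the 10 Gy difference between OF effects rest on WT R livers with bright ovary and oocyte markers, whose part was not tested. Of the WT R arrays with 40 Gy, replicate 1 was the lower for nr5a2 and had the lower hepatocyte marker mean (10.76, against 11.24). The part of this in the 40 Gy difference was not tested either.

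The xenobiotic receptor nr1i2 had its largest OF differences in the obese transgenic fish. It read, in HBx,src,p53- DIO fish, 9.29, 8.69, 9.50, 9.83 and 9.16 in OF + R livers, against 6.99, 8.10 and 7.86 in R livers, with no overlap. It rose by 1.64 ± 0.36 on the log2 scale, or 3.12 times (adjusted p = 0.0177). Signals in HBx,src DIO fish were 8.13, 8.24, 7.23 and 7.95 in OF + R livers, against 7.30, 6.06 and 6.04 in R livers. OF + R replicate 3 and R replicate 1 overlapped there, and the difference of 1.42 ± 0.38 did not pass (adjusted p = 0.0759). WT fish differed by 0.38 ± 0.50 with 40 Gy (6.93 and 7.82 in OF + R livers, against 6.59 and 7.39 in R livers, overlapping) and 0.55 ± 0.50 with 10 Gy (8.12 and 8.91 in OF + R livers, against 7.88 and 8.04 in R livers, not overlapping). Of the bright genes, 28.5% in HBx,src,p53- DIO fish and 58.4% in WT fish with 10 Gy were separated with OF above. The OF effect in transgenic minus WT fish was 1.04 ± 0.62 in the 40 Gy batch (adjusted p = 0.673) and 1.09 ± 0.61 in the 10 Gy batch (adjusted p = 0.513), so that the 2 kinds of fish were not shown to differ. The call in HBx,src,p53- DIO fish was lost without R replicate 1 (1.32, adjusted p = 0.117), R replicate 3 (adjusted p = 0.0504) or both arrays of low vtg2 (1.47, adjusted p = 0.0976).

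The homeobox factor prox1a, which marks hepatocytes and lymphatic endothelium, had a positive OF difference in each comparison and passed the threshold in 1. The signals were 9.83 and 10.24 in OF + R livers, against 8.77 and 7.77 in R livers, of WT fish with 10 Gy, a rise of 1.77 ± 0.50 on the log2 scale (adjusted p = 0.0481). This call stood at the threshold and was lost without either OF + R array or without R replicate 2, among 16 of 23 left-out arrays (adjusted p up to 0.362), and with array medians subtracted (adjusted p = 0.0522). It rests on the WT R livers with bright ovary and oocyte markers, whose part was not tested. HBx,src,p53- DIO fish had prox1a signals of 9.30, 8.73, 9.10, 9.02 and 8.64 in OF + R livers, against 7.20, 8.03 and 8.01 in R livers (1.21 ± 0.36, adjusted p = 0.0814, no overlap). HBx,src DIO fish had 7.86, 7.96, 7.48 and 7.85 in OF + R livers, against 7.04, 7.17 and 6.32 in R livers (0.94 ± 0.38, adjusted p = 0.297, no overlap). Of the bright genes, 28.5% in HBx,src,p53- DIO and 26.8% in HBx,src DIO fish were separated in this way. Arrays of WT fish with 40 Gy overlapped, with 7.26 and 8.23 in OF + R livers, against 5.76 and 7.64 in R livers (1.04 ± 0.50, adjusted p = 0.282).

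The forkhead factors were not called in any OF comparison. foxa3, the FOXA member that is highest in adult mouse liver, had positive differences with 40 Gy and negative ones with 10 Gy. HBx,src DIO fish had foxa3 signals of 8.90, 8.67, 8.58 and 8.35 in OF + R livers, against 8.25, 7.30 and 6.81 in R livers (1.17 ± 0.41, unadjusted p = 0.0112, adjusted p = 0.207). WT fish with 40 Gy had 8.52 and 8.85 in OF + R livers, against 6.68 and 8.25 in R livers (1.22 ± 0.54, unadjusted p = 0.0373, adjusted p = 0.243). Neither pair overlapped, and 26.8% and 43.2% of the bright genes were separated in this way in HBx,src DIO and WT fish with 40 Gy. Of the 2 WT R arrays, the one low for foxa3 also had the lower hepatocyte marker mean (replicate 1, 10.76, against 11.24 in replicate 2), whose part was not tested. With 10 Gy, foxa3 read 7.12, 8.67, 8.42, 8.34 and 8.39 in HBx,src,p53- DIO OF + R livers, against 9.27, 8.40 and 8.01 in R livers (-0.37 ± 0.40, adjusted p = 0.742). It read 8.11 and 8.56 in WT OF + R livers, against 8.60 and 8.54 in R livers (-0.24 ± 0.54, adjusted p = 0.917). foxa2, the other FOXA gene and a factor of early endoderm, read 6.96 to 7.22 in HBx,src DIO OF + R livers, against 6.51 to 7.34 in R livers (0.18 ± 0.30), and 6.51 and 6.86 in WT OF + R livers, against 6.45 and 7.14 in R livers (-0.11 ± 0.40). In the 10 Gy batch it read 8.13 to 8.63 in HBx,src,p53- DIO OF + R livers, against 7.01 to 8.55 in R livers (0.41 ± 0.29), and 8.56 and 9.23 in WT OF + R livers, against 8.17 and 8.21 in R livers (0.71 ± 0.40, adjusted p = 0.425). The WT groups with 10 Gy were the only pair of the 4 that did not overlap for foxa2, and 58.4% of the bright genes were separated in this way there.

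The C/EBP genes varied most between arrays of 1 group and gave no call. cebpa, a factor of mature hepatocytes, was the only member with a negative OF difference in every comparison, by its brightest probe set. Its dimmer probe set with other values was not compared. The largest was in WT fish with 40 Gy, with 5.40 and 4.36 in OF + R livers, against 8.74 and 5.90 in R livers (-2.44 ± 0.86, unadjusted p = 0.011, adjusted p = 0.138). The 2 R arrays lay further apart than the group means did. Neither WT pair overlapped, with OF + R livers below R livers at 40 Gy and at 10 Gy. How many bright genes were separated downward was not counted, so these separations cannot be weighed against a share. With OF above, 43.2% (40 Gy) and 58.4% (10 Gy) of the bright genes were separated in these WT pairs. Signals of cebpa in HBx,src DIO fish were 7.08, 6.62, 7.53 and 7.20 in OF + R livers, against 6.14, 7.06 and 8.55 in R livers (-0.14 ± 0.65). Those in HBx,src,p53- DIO fish were 5.83, 7.56, 6.98, 6.34 and 6.72 in OF + R livers, against 6.35, 8.05 and 7.81 in R livers (-0.72 ± 0.63). WT fish with 10 Gy had 7.25 and 5.78 in OF + R livers, against 7.92 and 7.41 in R livers (-1.14 ± 0.86, adjusted p = 0.592). These intervals are wide, and in HBx,src DIO fish, for example, the 95% interval ran between -1.52 and 1.24. cebpb, which rises in the acute phase and in regenerating mammalian liver, differed by 0.19 ± 0.49 in HBx,src DIO fish, by -0.72 ± 0.64 in WT fish with 40 Gy, by -0.04 ± 0.47 in HBx,src,p53- DIO fish and by 0.71 ± 0.64 in WT fish with 10 Gy, and only the last pair did not overlap (8.08 and 8.31 in OF + R livers, against 7.44 and 7.53 in R livers). In that pair 58.4% of the bright genes were separated with OF above.

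**Figure D2:**
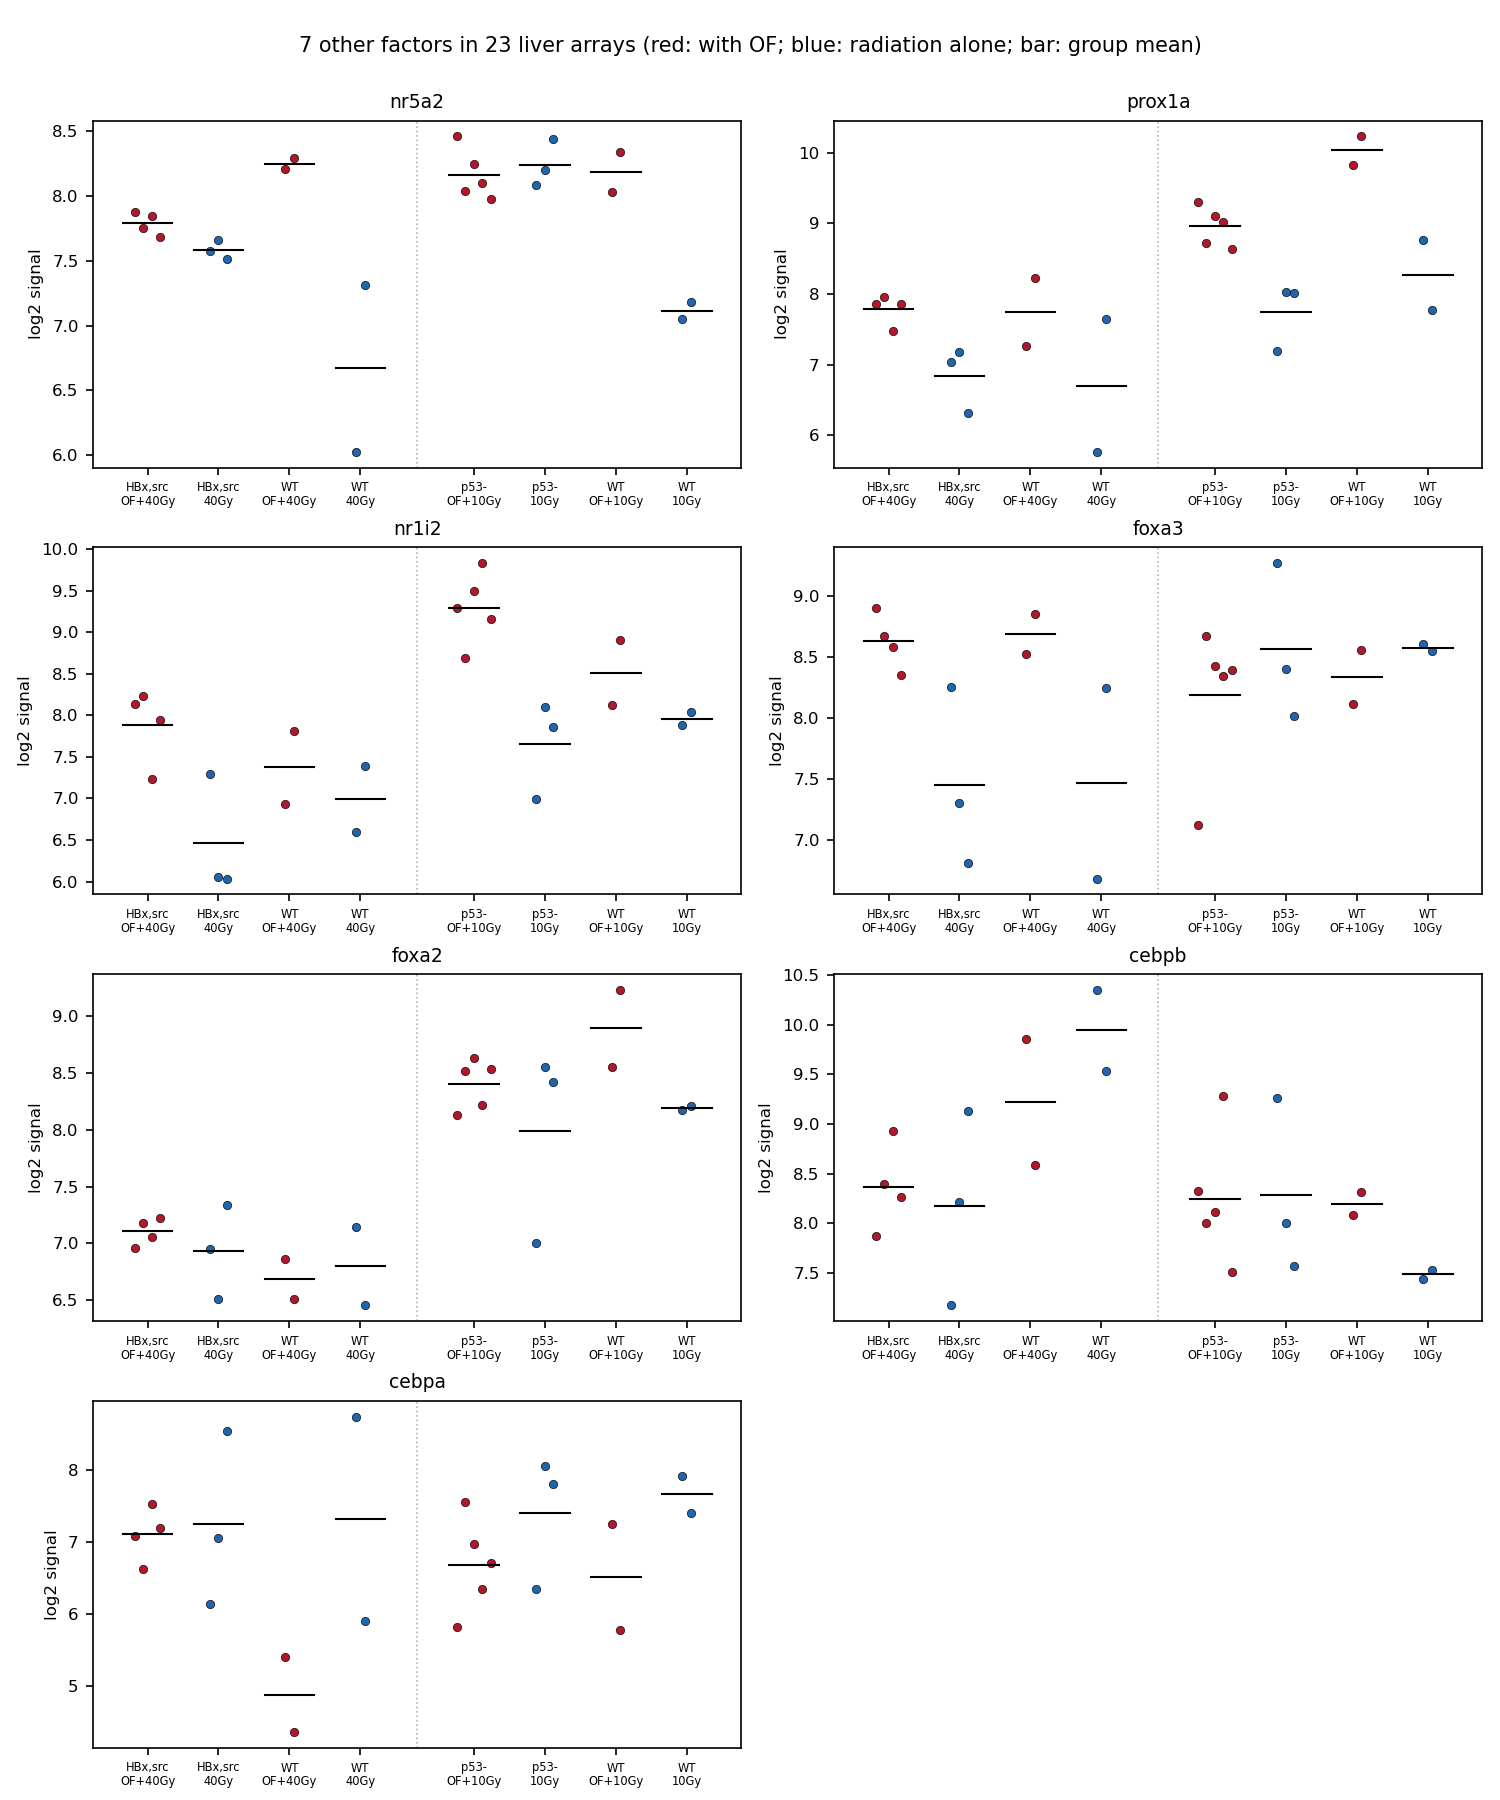
Log2 signal (y axis) of nr5a2, prox1a, nr1i2, foxa3, foxa2, cebpb and cebpa on each of 23 arrays, by group (x axis), drawn as for hnf4a, with red for arrays with OF, blue for radiation alone and black bars for group means. The WT groups of nr5a2 are apart (8.20 and 8.29 with OF, against 6.03 and 7.31 without, at 40 Gy), whereas the red and blue arrays of cebpb overlap in every pair but the last.

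Counted over the 10 probe sets, 2 were called with OF in HBx,src DIO fish (both of hnf4a), 2 in WT fish with 40 Gy (hnf4a and nr5a2), 3 in HBx,src,p53- DIO fish (hnf4a, hnf4a and nr1i2) and 3 in WT fish with 10 Gy (hnf4a, prox1a and nr5a2), all of them higher. The shares called were 1.37%, 2.95%, 3.29% and 5.1% of all probe sets, and 8.99%, 8.63%, 18.1% and 7.61% of the bright genes. The bright genes count 1 probe set each, whereas 3 of the 10 probe sets are of hnf4a. With 1 probe set per gene, the median log2 difference of the 8 factors was 0.57, 0.71, 0.19 and 0.71, against 0.41, 0.48, 0.22 and 0.44 for the bright genes and 0.01, 0.07, 0.00068 and 0.03 for all genes. The difference was positive for 7, 5, 4 and 6 of the 8 genes. Thus the median of the group lay above that of the bright genes in HBx,src DIO fish and in WT fish at either dose. In HBx,src,p53- DIO fish it lay below theirs. Whether the group differed from other bright genes was not tested.

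**Figure D3:**
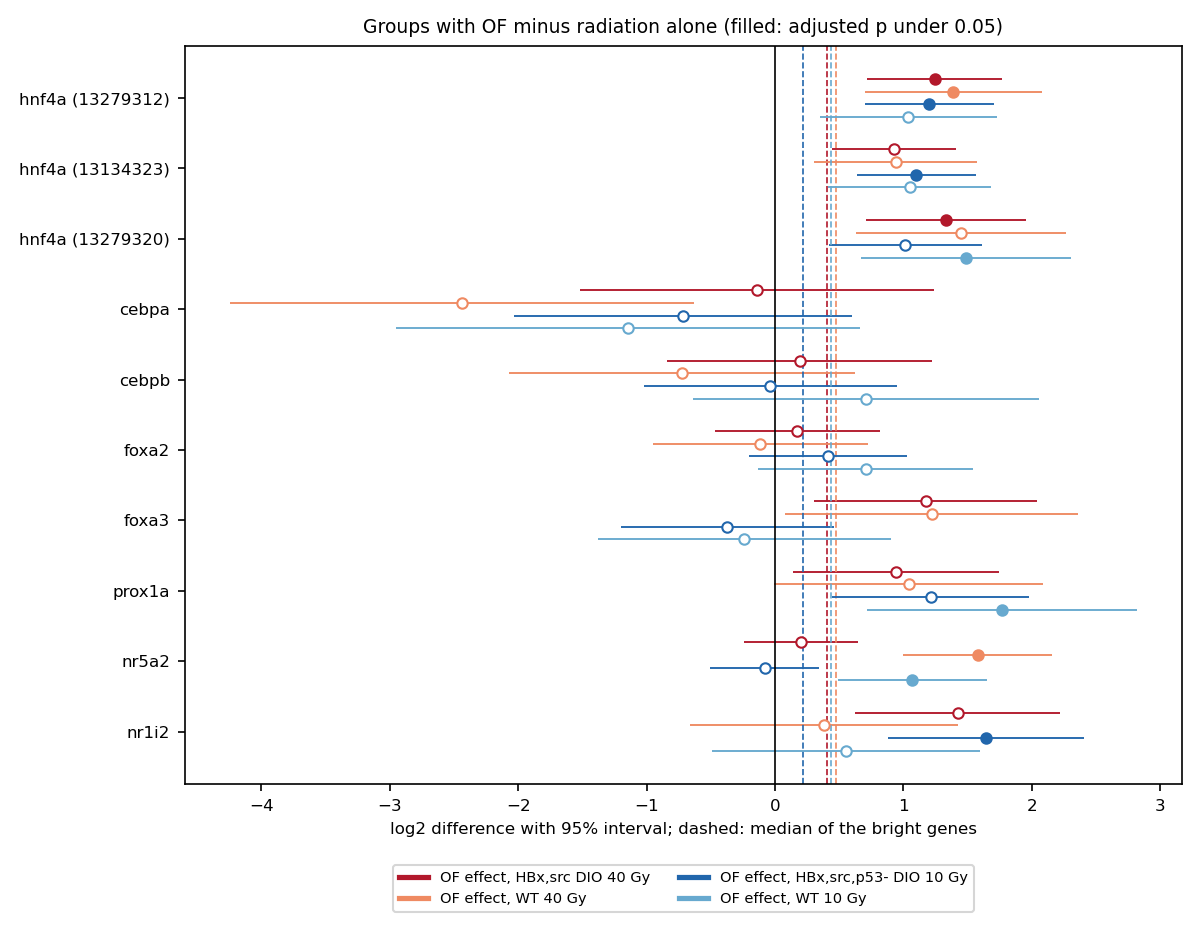
Log2 difference, OF + R minus R (x axis), of the 10 probe sets (y axis) in the 4 pairs of groups, with bars for 95% intervals from limma and filled points for an adjusted p under 0.05. Dashed lines mark the median of the 2259 bright genes in each comparison (0.41, 0.48, 0.22 and 0.44). All 12 hnf4a points lie right of these lines, the cebpa points all lie left of 0, and the nr5a2 points of the WT fish lie apart from those of the transgenic fish.

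Obese transgenic fish were then set against WT fish of the same treatment. Only nr5a2 in HBx,src,p53- DIO fish with 10 Gy alone was called, 1 of 10 probe sets in a comparison where 7.27% of all probe sets were. It read 8.08, 8.20 and 8.44 in HBx,src,p53- DIO R livers, against 7.05 and 7.18 in WT R livers, a log2 difference of 1.13 ± 0.25 (adjusted p = 0.00758). The call was lost without replicate 1 of the WT group (1.06, adjusted p = 0.0839), and ovary and oocyte markers were bright in these WT R livers, whose part was not tested. With 40 Gy alone nr5a2 read 7.58, 7.66 and 7.51 in HBx,src DIO livers, against 6.03 and 7.31 in WT livers (0.92 ± 0.25, adjusted p = 0.0736). With OF nr5a2 was not called. The log2 difference was -0.02 ± 0.23 in HBx,src,p53- DIO minus WT fish with 10 Gy (adjusted p = 0.996) and -0.46 ± 0.24 in HBx,src DIO minus WT fish with 40 Gy (7.69 to 7.87 in HBx,src DIO livers, against 8.20 and 8.29 in WT livers, adjusted p = 0.582).

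In the remaining comparisons of transgenic with WT fish, limma called 0 of the 10 probe sets. With 40 Gy alone 1.93% of all probe sets were called, and 4 of the 10 had an unadjusted p under 0.05. With OF and 40 Gy 0.971% were called, and 3 of the 10 had such a p. With OF and 10 Gy 0.762% were called, and 1 of the 10 had such a p. These included hnf4a, whose brightest probe set was higher by 0.74 ± 0.30 in HBx,src DIO than in WT livers with 40 Gy alone (unadjusted p = 0.0234, adjusted p = 0.247, overlapping arrays) and by 0.60 ± 0.28 with OF and 40 Gy (unadjusted p = 0.0494, adjusted p = 0.509). They also included cebpb, with 7.17, 8.21 and 9.13 in HBx,src DIO livers, against 10.35 and 9.53 in WT livers with 40 Gy alone (-1.77 ± 0.58, adjusted p = 0.142). cebpa read 7.08, 6.62, 7.53 and 7.20 in HBx,src DIO livers, against 5.40 and 4.36 in WT livers with OF and 40 Gy (2.22 ± 0.74, adjusted p = 0.225). prox1a read 8.64 to 9.30 in HBx,src,p53- DIO livers, against 9.83 and 10.24 in WT livers with OF and 10 Gy (-1.08 ± 0.42, adjusted p = 0.377). None of these passed after adjustment. Oestrogen-responsive genes also differed, with a median of 6.21 with 40 Gy alone (4 of 10 called higher, 1 lower). Their median was 4.59 with OF and 40 Gy (0 called) and 5.25 with OF and 10 Gy (1 called higher). Exocrine pancreas markers had a median of 2.30 with OF and 10 Gy (1 of 21 called higher). The part of these shifts in the member differences, those of nr5a2 included, was not tested. The shares of all probe sets given here are of calls after adjustment. The share at an unadjusted p under 0.05 was not counted, so the member counts at that p have none beside them.

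Within the first batch the brightest hnf4a probe set was highest in HBx,src DIO OF + R livers (8.81 ± 0.26, SD, n = 4), then in WT OF + R livers (8.21 ± 0.12, n = 2), HBx,src DIO R livers (7.57 ± 0.42, n = 3) and WT R livers (6.82 ± 0.54, n = 2). The HBx,src DIO and WT R livers overlapped. Within the second batch HBx,src,p53- DIO OF + R livers (9.64 ± 0.30, n = 5) and WT OF + R livers (9.58 ± 0.19, n = 2) overlapped, and so did HBx,src,p53- DIO R livers (8.44 ± 0.32, n = 3) and WT R livers (8.54 ± 0.46, n = 2). The OF effect on hnf4a differed between transgenic and WT fish by -0.14 ± 0.41 in the 40 Gy batch (95% interval between -1.01 and 0.72) and by 0.16 ± 0.41 in the 10 Gy batch (between -0.69 and 1.02), both intervals including 0. Of such differences in OF effect, limma called 0 of the 10 probe sets in either batch, where 0.166% and 3.57% of all probe sets were called. At an unadjusted p under 0.05 were 2 and 1 of the 10, and the share of all probe sets at that p was not counted.

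**Figure D4:**
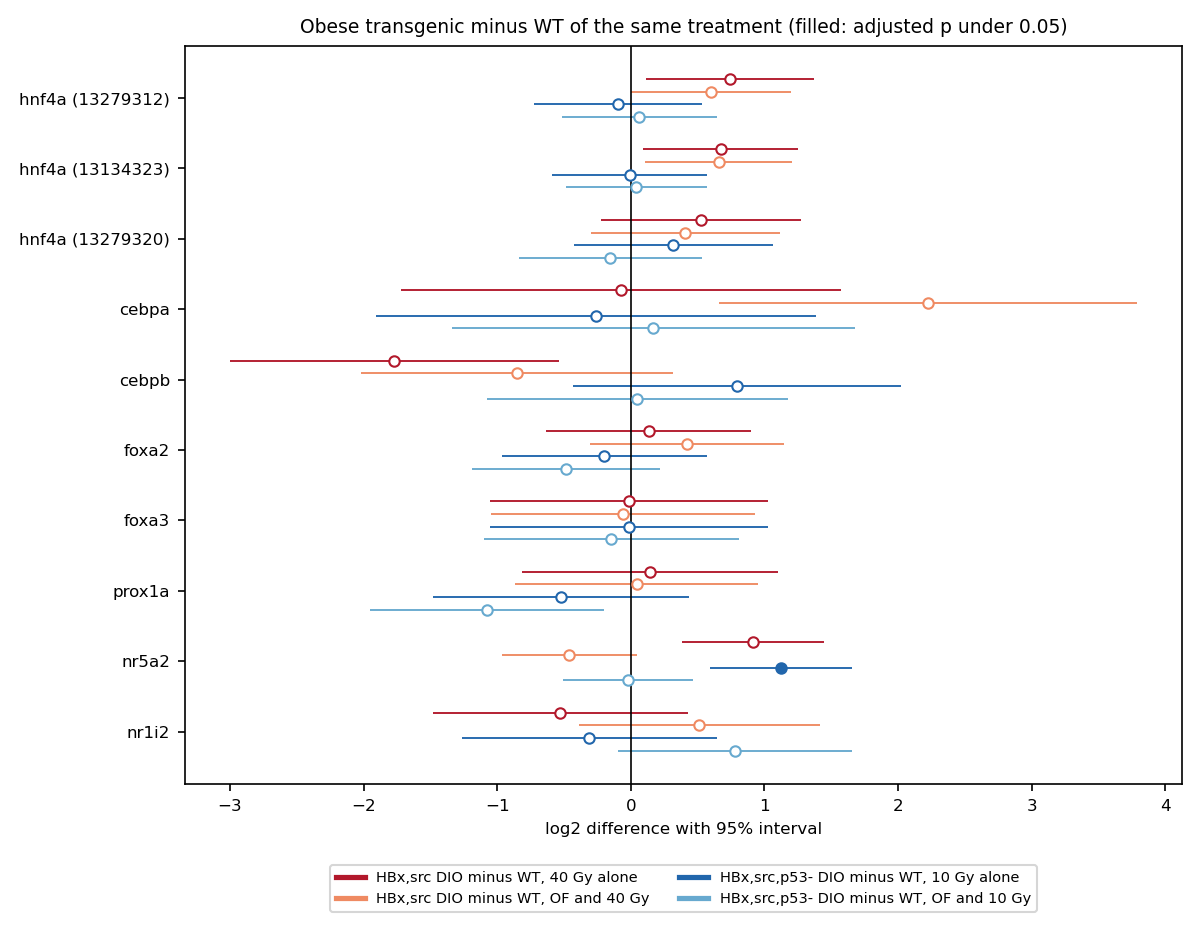
Log2 difference, obese transgenic minus WT fish of the same dose and treatment (x axis), of the 10 probe sets (y axis), with bars for 95% intervals from limma and filled points for an adjusted p under 0.05. The only filled point is nr5a2 in HBx,src,p53- DIO minus WT fish with 10 Gy alone (1.13), and most intervals cross 0.

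Other transcription factors of hepatocytes, 39 of 43 listed genes that were matched, moved mostly upward where they passed. With OF 2 rose in HBx,src DIO fish, namely nr1h4 (FXR, the bile acid receptor), by 1.46 ± 0.25, and tefa, a clock-controlled factor, by 1.29 ± 0.28. Those that rose in WT fish with 40 Gy were 4, namely nr3c1 (the glucocorticoid receptor), by 1.61 ± 0.29, klf15 by 2.46 ± 0.52, hnf1bb by 2.59 ± 0.55 and onecut1 (HNF6) by 1.82 ± 0.43. These 2 and 4 of 39 stand beside 8.99% and 8.63% of the bright genes and 1.37% and 2.95% of all probe sets. The 2 did not exceed the share of the bright genes, and the 4 stood near it. The bright genes had a mean log2 signal of at least 6.90, whereas the 39 factors averaged 5.40 to 6.56 per array in this batch. The 2 sets are thus not matched in brightness, and a matched share was not counted. hnf1bb, the paralogue of hnf1ba, read 7.57 and 8.62 in OF + R livers, against 4.58 and 6.42 in R livers. It and onecut1 are also markers of bile duct cells, and biliary markers averaged 5.60 and 6.03 in OF + R livers, against 4.82 and 5.29 in R livers (4 of 16 called higher, both of them included), whose part was not tested. None of the 39 was called higher in WT fish with 40 Gy without OF + R replicate 2, against 10 without R replicate 2, and klf15, hnf1bb and onecut1 also lost their calls without R replicate 1 (adjusted p = 0.137 to 0.156). The call of tefa was lost without R replicate 3 or OF + R replicate 1, 2 or 4 (adjusted p = 0.054 to 0.132), while nr1h4 kept its call whichever of the 23 arrays was left out. With quantile normalization tefa (1.01, adjusted p = 0.0871) and onecut1 (1.35, adjusted p = 0.0757) were not called.

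With 10 Gy, 9 of these factors rose and 1 fell with OF in HBx,src,p53- DIO fish, where 3.29% of all probe sets and 18.1% of the bright genes were called. Without R replicate 1 the 9 became 4. onecutl, a relative of HNF6, read 8.80, 8.91, 9.87, 9.68 and 8.76 in OF + R livers, against 4.09, 5.03 and 4.60 in R livers, a rise of 4.63 ± 0.63 on the log2 scale (adjusted p = 0.000676). It read 10.00 and 9.66 in WT OF + R livers, against 8.87 and 9.16 in WT R livers. The HBx,src,p53- DIO R livers were thus the low group of this batch, with a log2 difference of -4.45 ± 0.79 to WT R livers (adjusted p = 0.00103). ppargc1a, a coactivator that works with HNF4A in gluconeogenesis, rose by 3.14 ± 0.60, pparab (PPAR alpha, fatty acid oxidation) by 1.85 ± 0.37 and tefa by 1.57 ± 0.27. The call of pparab was lost without R replicate 1 (adjusted p = 0.0737). The factor that fell was xbp1, which acts in the unfolded protein response, with a log2 difference of -1.90 ± 0.45 (adjusted p = 0.0261), named after its value was seen. Only 2 rose in WT fish with 10 Gy, creb3l3l by 1.88 ± 0.30 and pparab by 2.59 ± 0.51. There 7.61% of the bright genes and 5.1% of all probe sets were called, so that 2 of 39 did not exceed the bright gene share, which was not matched in brightness. Both calls rest on the WT R livers with bright ovary and oocyte markers, whose part was not tested. Without both arrays of low vtg2, 3 of the 39 were called higher and 0 lower in HBx,src,p53- DIO fish, onecutl, tefa and ppargc1a. The median over the list was 0.37 in HBx,src DIO fish, 0.62 in WT fish with 40 Gy, 0.36 in HBx,src,p53- DIO fish and 0.63 in WT fish with 10 Gy. It was 0.41, 0.48, 0.22 and 0.44 for the bright genes, which were not matched to the list in brightness.

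Genes known as HNF4A targets in mammalian liver, 43 of 52 listed genes that were matched, were called higher with OF in 2 cases in HBx,src DIO fish, 3 in WT fish with 40 Gy, 12 in HBx,src,p53- DIO fish and 7 in WT fish with 10 Gy, and called lower in 0, 0, 1 and 0. Of all probe sets 1.37%, 2.95%, 3.29% and 5.1% were called in these comparisons, and of the bright genes 8.99%, 8.63%, 18.1% and 7.61%, so that with 40 Gy the share of targets did not exceed that of the bright genes. With 10 Gy, 7 of 19 hepatocyte markers were called higher in HBx,src,p53- DIO fish (median 0.64) and 0 of 19 in WT fish (median 0.47). Whether the targets differed from these markers was not tested. The 12 became 6 without R replicate 3 of the HBx,src,p53- DIO fish (7 without R replicate 1), the 7 became 3 without R replicate 1 of the WT fish with 10 Gy, and the 2 became 0 without R replicate 2 of the HBx,src DIO fish. The 2 in HBx,src DIO fish were hpda, an enzyme of tyrosine breakdown (1.16 ± 0.24), and hepatic lipase lipca (0.90 ± 0.22), whose call was lost for 20 of 23 left-out arrays and with quantile normalization (0.71, adjusted p = 0.11). The 3 in WT fish with 40 Gy were abcb11b (the bile salt export pump), with 9.69 and 9.85 in OF + R livers, against 6.59 and 7.86 in R livers (2.54 ± 0.43), tat (tyrosine aminotransferase, 1.73 ± 0.32) and apobb.2 (apolipoprotein B, 2.52 ± 0.53). None of the 43 was called higher there without OF + R replicate 2, against 9 without R replicate 2, and apobb.2 also lost its call without R replicate 1 or OF + R replicate 1 (adjusted p = 0.096 and 0.0942). The call of hpda was lost without R replicate 2 or 3 or OF + R replicate 1, 2 or 4 (adjusted p = 0.0521 to 0.0928). The leading genes in HBx,src,p53- DIO fish were ahsg2 (a fetuin, 2.65 ± 0.41), clotting factor f7 (1.40 ± 0.25), tdo2b (tryptophan dioxygenase) and agxtb (alanine-glyoxylate aminotransferase, 2.26 ± 0.41). tdo2b read 11.20, 8.69, 10.74, 11.50 and 10.77 in OF + R livers, against 6.34, 3.63 and 7.63 in R livers (4.71 ± 0.85, adjusted p = 0.0054). All 4 kept their calls without both arrays of low vtg2, where 5 of the 43 were called higher and 0 lower. The median of the targets was then 0.50, beside 0.49 for the 19 hepatocyte markers (0 called higher), which was 0.64 with all arrays. The target called lower was mttp, which loads lipid onto lipoproteins, with a mean log2 signal of 9.72 in OF + R livers, against 10.29 in R livers (-0.57 ± 0.15, adjusted p = 0.0474), but no target was called lower with array medians subtracted or with most single arrays left out.

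The leading targets in WT fish with 10 Gy were apoa1a (apolipoprotein A-I), with 12.06 and 11.27 in OF + R livers, against 8.63 and 7.08 in R livers (3.81 ± 0.52, adjusted p = 7.88e-05), mttp (1.25 ± 0.21), mat1a (methionine adenosyltransferase, 1.80 ± 0.35) and cyp8b1.2, a bile acid hydroxylase. The last read 4.51 and 3.70 in OF + R livers, against 2.48 and 2.78, about the array medians, in R livers (adjusted p = 0.00282), so that no size is given. The calls of mat1a and cyp8b1.2 were lost without R replicate 1 (adjusted p = 0.0884) and OF + R replicate 1 (adjusted p = 0.0772). For mttp and apoa1a the OF effect was lower in HBx,src,p53- DIO fish than in WT fish, with log2 differences between the effects of -1.82 ± 0.26 (adjusted p = 0.000192) and -3.29 ± 0.64 (adjusted p = 0.00458). In the R livers both were higher in HBx,src,p53- DIO than in WT fish (mean log2 signals of mttp 10.29 against 8.54, apoa1a 11.23 against 7.85). All of these values rest on the WT R livers with bright ovary and oocyte markers, in which vtg2 read 13.71 and 13.89, against 3.96 and 3.18 in WT OF + R livers, and the part of this in the target differences was not tested. cyp7a1, the first enzyme of bile acid synthesis, was lower in HBx,src,p53- DIO than in WT livers with OF and 10 Gy (adjusted p = 0.0155). It read 1.76 to 3.34, around the array medians, in HBx,src,p53- DIO livers, against 6.11 and 5.25 in WT livers, so that no size is given. The median over the 43 targets was 0.20 in HBx,src DIO fish, 0.32 in WT fish with 40 Gy, 0.62 in HBx,src,p53- DIO fish and 0.60 in WT fish with 10 Gy, below that of the bright genes with 40 Gy and above it with 10 Gy.

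**Figure D5:**
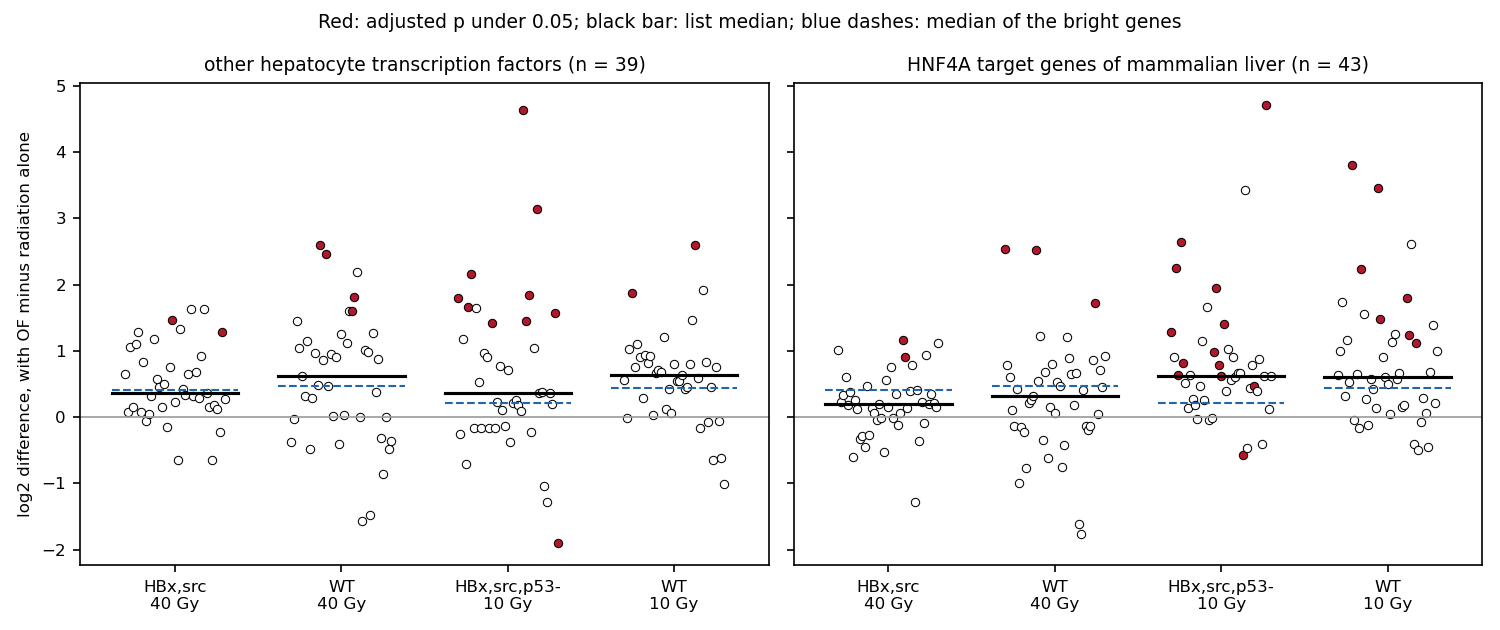
Log2 difference, OF + R minus R (y axis), of 39 other hepatocyte transcription factors (left) and 43 HNF4A target genes of mammalian liver (right) in the 4 pairs of groups (x axis), 1 point per gene, red for an adjusted p under 0.05. Black bars are list medians and blue dashes the median of the 2259 bright genes. The target medians lie below the dashes with 40 Gy (0.20 and 0.32) and above them with 10 Gy (0.62 and 0.60).

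The genes with profiles most like that of hnf4a were sought by the mean absolute difference of log2 signals over the 23 arrays, each batch centred on its own mean. Of 14494 genes above the mean array median the nearest were tapt1b (0.21), tmem19 (0.22), serinc1 (0.25), tmem187 (0.26) and ggh (0.26), where hnf4a itself deviated by 0.61 on average. The OF differences of tapt1b, which was chosen for its likeness to hnf4a on these same arrays, are given as a description and were 1.23 ± 0.24 in HBx,src DIO fish, 1.27 ± 0.31 in WT fish with 40 Gy, 1.15 ± 0.23 in HBx,src,p53- DIO fish and 1.16 ± 0.31 in WT fish with 10 Gy. Of the other factors prox1a came nearest (0.41, rank 378), followed by nr1i2 (0.43, rank 599), nr5a2 (0.48, rank 1295), foxa2 (0.52, rank 2350) and foxa3 (0.56, rank 3666). cebpb (0.89, rank 12636) and cebpa (1.12, rank 13827) were among the genes least like it by this measure. The measure counts spread as well as pattern, and cebpb and cebpa themselves deviated by 0.59 and 0.82 on average. A gene flat on all arrays would score 0.61, beside 0.52 for foxa2 and 0.56 for foxa3.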

How the data were processed

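Liver RNA was hybridised to ZebGene ST arrays. For each array the authors deposited log2 values, 1 for every probe set, made per the labels with the Transcriptome Analysis Console. The sources used here name no version, summarisation or normalization method or genome build, nor say whether batches were normalized apart. Signals were used as deposited. Arrays of 1 group correlated at 0.898 to 0.965, and arrays limit precision by their number. Genes were named through a probe annotation table of the platform.

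A model of the 8 group means was fitted to all 23 arrays (15 residual degrees of freedom) with limma 3.58.1 (R 4.3.3), and two-sided p-values got Benjamini-Hochberg adjustment across the 75212 probe sets, with calls made under 0.05. The sources do not say that arrays came from separate animals, so p-values measure the spread between arrays, which may be technical. The members and lists were chosen with earlier results of these data known. In the lists, at most 4 called genes per comparison with the smallest p were named, and 5 genes nearest to hnf4a. The factor and the target called lower with OF in HBx,src,p53- DIO fish, xbp1 and mttp, were named outside this rule. The fit was tested on simulated data. Alternatives were a fit of the compared groups alone, a replicate block, median subtraction, quantile normalization, dropping the dimmest 40% of probe sets, a trended prior, leaving out arrays, the mean over probe sets and another centring. Figures were drawn with matplotlib 3.10.9.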

Additional observations from a re-analysis of the deposited data

Results flagged for a closer look

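The signal of foxa3 in replicate 1 of the HBx,src,p53- DIO OF + R group was 7.12, with the other 4 arrays between 8.34 and 8.67, a gap of 0.786 of the range of the group. It was 1 of 20 sets of values tested in the groups of 4 and 5 arrays, and chance flags about 1 in 20. The array was also 1 of the 2 with a low vtg2 signal (3.69), and whether the signals are linked was not tested.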

How the results depend on the processing

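Groups of 2 arrays limit what can be called, and the spread of such a group was taken from all 8 groups. Fitting only the groups compared left 0 member probe sets called with OF in HBx,src DIO fish, 0 in WT fish with 40 Gy and 0 in WT fish with 10 Gy (4 in HBx,src,p53- DIO fish), where 1 was called for the difference of OF effects in the 10 Gy batch (nr5a2). Quantile normalization left 0, 1 and 1 in the same 3 comparisons, and 1 (nr5a2) for HBx,src DIO minus WT fish with 40 Gy alone. The mean over the probe sets of each gene gave 1 for the difference in the 10 Gy batch. Without both arrays of low vtg2, 0 were called with OF in HBx,src,p53- DIO fish. Of the 11 calls, 10 remained with array medians subtracted, 11 without the dimmest probe sets, 10 with a trended prior, 6 with quantile normalization, 4 with only the groups compared and 7 without the low vtg2 arrays. Subtracting array medians moved the median OF difference of all genes in WT fish with 40 Gy to 0.21, from 0.07. None of the 11 changed sign in these settings, in the block or in leaving out any array. For most settings this was fixed in advance. The arrays of all 11 were separated without overlap, so leaving out arrays could not change a sign. Fitting only the groups compared, dropping dim probe sets and the trended prior leave the difference as it is.

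Deviations of same-numbered arrays from their group means correlated at -0.0997 to 0.155. Differently numbered arrays were not set beside them, so whether the numbers pair the arrays was not settled. With the replicate number as a block, 0 were called with OF in HBx,src DIO fish, 0 in WT fish with 40 Gy, 0 in HBx,src,p53- DIO fish and 1 in WT fish with 10 Gy, and 0 for HBx,src,p53- DIO minus WT fish with 10 Gy alone, so that 1 of the 11 calls remained.

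Leaving out each array in turn gave 0 to 4 called probe sets in each of the 4 OF comparisons, 0 to 1 for both comparisons of transgenic with WT fish under radiation alone, 0 with OF, and 0 to 1 for both differences of OF effects. The brightest hnf4a probe set, uncalled in these comparisons, changed sign in some. For HBx,src,p53- DIO minus WT fish with 10 Gy alone it ran between -0.42 and 0.23 over the left-out arrays and was 0.071 as a mean over probe sets. With OF and 10 Gy it ran between -0.068 and 0.20, and was -0.15 without the low vtg2 arrays and -0.015 as a mean over probe sets. The difference of its OF effects ran between -0.53 and 0.24 with 40 Gy and between -0.16 and 0.49 with 10 Gy, where it was -0.053 without the low vtg2 arrays and -0.086 as a mean over probe sets. Centred on group means, 0 of the 5 genes nearest to hnf4a were shared. Quantile normalization, an alternative chosen after seeing the data, gave 2 flagged sets of values in place of 1.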
